A study of Mus musculus with 12 samples.

Results

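Cytochrome P450 genes encode heme-containing monooxygenases. The protein-coding genes whose symbol is Cyp followed by a family number, an optional subfamily letter and an optional gene number were taken as members, and 94 of the 54532 genes in the tables met this rule. Members with a mean of at least 0.5 FPKM (fragments on a gene per kilobase of its length, adjusted for library depth) over the 6 libraries of a tissue are reported for that tissue, 33 in crypts and 31 in tumors. RNA-seq had been run on small intestinal crypts and on colon tumors of mice, with 3 libraries per group and 12 in all. Crypts came from adult wild-type mice and from adult mice with a germline homozygous deletion of ieCtnnb1, an intestinal enhancer of the beta-catenin gene Ctnnb1. Tumors came from adult mice of 5 months labelled APCmin/+ (ApcMin/+), which carry a nonsense mutation in a single copy of the tumor suppressor Apc, and from APCmin/+;ieCtnnb1KO mice of the same age, which carry both changes. The deletion is present in every cell of the animal, and the ApcMin/+ allele is shared by both tumor groups. Each tissue asks whether P450 expression differs between the enhancer knockout and its own control.

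P450 enzymes insert an oxygen atom into their substrates and take electrons from cytochrome P450 reductase (Por) in the endoplasmic reticulum or from ferredoxin in mitochondria. Families CYP1 to CYP3 mainly oxidize drugs, dietary compounds and other foreign chemicals, CYP4 enzymes hydroxylate fatty acids and eicosanoids, and further families act in sterol, bile acid, steroid, vitamin D and retinoid metabolism. In the small intestine they are most abundant in absorptive enterocytes and form part of the barrier against ingested compounds.

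Fragments assigned to genes numbered 14457896 to 16074777 per crypt library and 14648696 to 16156712 per tumor library. Of the 94 members, 29 had no fragment in any crypt library and 32 had fragments but stayed below the threshold. In tumors these numbers were 24 and 39. Both tissues shared 22 reported members, 11 were reported in crypts only, 9 in tumors only and 52 in neither. The members nearest the threshold in crypts were Cyp4a32 at a mean of 0.503 FPKM, just inside, and Cyp2r1 at 0.409 FPKM, just outside. In tumors they were Cyp2c65 at 0.671 FPKM and Cyp7b1 at 0.419 FPKM. The 2 tables had been normalized separately, so levels in crypts and tumors are set side by side without a test.

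Ctnnb1, the target of the deleted enhancer, was at 121, 134 and 123 FPKM in the wild-type crypts and at 102, 104 and 105 FPKM in the knockout crypts. In tumors it was at 299, 363 and 358 FPKM in the controls and at 279, 248 and 250 FPKM in the knockouts. Every knockout library lay below every control library in both tissues. The epithelial marker Epcam was at 659 to 797 FPKM in crypts and 696 to 896 FPKM in tumors. Hoxb13, a marker of the distal colon, was listed at 0 in all 6 crypt libraries and at 70.1 to 128 FPKM in tumors, while the small intestinal gene Fabp1 was at 170 to 901 FPKM in crypts and at most 0.225 FPKM in tumors. The liver gene Fgb was at most 0.0515 FPKM in crypts and listed at 0 in tumors. Among the tumor libraries, replicate 3 of each genotype expressed Xist (114 and 61.4 FPKM) and the others expressed the Y-linked gene Ddx3y, so both sexes were present in each tumor group. All crypt libraries expressed Ddx3y at 8.32 to 9.86 FPKM.

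In crypts, most reported P450 genes had a higher mean log2 level in the knockout, and the 3 groups of genes with the highest levels were CYP4F, CYP3A and CYP2C. Cyp3a13, Cyp2c68, Cyp2j6 and Cyp2s1 were higher in every knockout library than in any wild-type library, with ratios of means of 1.42, 1.51, 1.29 and 1.29. Cyp2e1 and Cyp4f18 were lower in every knockout library. No gene of the 14176 tested had an adjusted p under 0.05 by limma, and the lowest adjusted p was 0.73 over all genes and 0.80 over the reported P450 genes. The voom fit in limma to recovered fragments also gave 0 genes. At an unadjusted p under 0.05, 3 of the 33 reported members were higher in the knockout and 2 lower, beside 3.48% and 2.36% of all tested genes. These counts were 6 and 1 by voom, beside 455 and 350 of all tested genes. They were 5 and 1 after rescaling to equal totals (472 and 289 of all tested genes), and 4 and 1 after quantile normalization (370 and 331). With the deposited scaling, the groups did not overlap for 4 members that were higher and 2 that were lower, beside 6.79% and 5.15% of all tested genes. The log2 fold change, on the scale of log2(FPKM + 0.5), was above 0 for 28 of the 33 members (84.8%) against 52.8% of all tested genes, with medians of 0.28 and 0.01. With 3 libraries against 3, the smallest p that an exact two-sided permutation test can give is 0.1. In these bulk samples, fewer cells of a type and less RNA per cell cannot be told apart.

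The wild-type crypt libraries differed among themselves by more than the group means did. Summed over the 94 members, P450 levels in wild-type libraries 1 to 3 came to 659, 938 and 1193 FPKM. Those in knockout libraries 1 to 3 came to 1343, 935 and 1343 FPKM. Wild-type library 1 was lowest, and knockout library 2 lay close to wild-type library 2. Of the 33 reported members, 25 had their lowest value in wild-type library 1, which held the lowest value of 19.2% of all tested genes. The 12 small intestinal enterocyte markers summed to 4678, 7788 and 13992 FPKM in wild-type crypts and to 9960, 7501 and 11323 FPKM in knockout crypts, with Fabp2 the most abundant and none at 0. Of these 12 markers, 11 had a log2 fold change above 0 and 1 below, and 1 of them (Mttp) had an unadjusted p under 0.05. For Apoa1, among the 11, the mean FPKM was lower in the knockout. All 9 Paneth cell markers had a log2 fold change below 0, 2 of them at that level, although the mean FPKM of Ang4 was higher in the knockout. They summed to 23211, 34175 and 64351 FPKM in wild-type crypts and to 25551, 22552 and 25673 FPKM in knockout crypts. Defa24 was the most abundant and none was at 0. The 7 goblet cell markers, with 6 below 0 and none at that level, summed to 6017, 9228 and 9723 FPKM in wild-type crypts and to 5462, 6545 and 8292 FPKM in knockout crypts. The most abundant was Tff3, and none was at 0. Of 6 enteroendocrine markers 5 were below 0, 2 at that level, with sums of 169, 145 and 199 FPKM in wild-type crypts and 106, 147 and 141 FPKM in knockout crypts, Chgb the most abundant and none at 0. The 8 stomach markers summed to 203 and 121 FPKM in wild-type libraries 1 and 2 and to 9.77 to 19.1 FPKM in the other 4 libraries, with Tff2 the most abundant, and Gkn1 and Gkn2 were listed at 0 in those 4. Their part in the P450 differences was not tested.

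Leaving out single libraries moved the family's numbers. Without wild-type library 1, the median log2 fold change of the reported members was 0.08, with 21 members above 0 and 12 below, and 2 had an unadjusted p under 0.05, as had 9.48% of all tested genes (5.85% with all libraries). The median was 0.43 without wild-type library 3, where 10 members and 7.65% of all tested genes had an unadjusted p under 0.05, and 3 genes of all tested had an adjusted p under 0.05. The number of members with an unadjusted p under 0.05 was 9 without knockout library 2, beside 4.89% of all tested genes. It was 2 without knockout library 1, beside 3.26%, and 2 without knockout library 3, beside 5.33%. With wild-type libraries 1 and 2 left out together, an alternative chosen after seeing the data, the median was 0.02 and 17 members were above 0 and 16 below. There 2 members and 15.8% of all tested genes had an unadjusted p under 0.05.

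**Figure D1:**
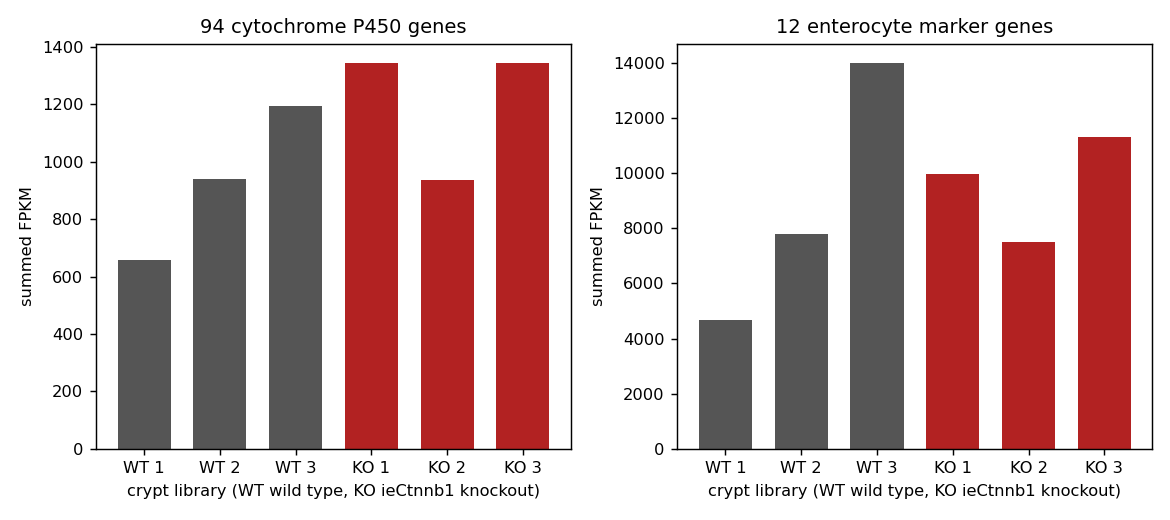
Summed FPKM of the 94 cytochrome P450 genes (left) and of 12 small intestinal enterocyte markers (right) in each of the 6 crypt libraries, wild type in grey and ieCtnnb1 knockout in red. Wild-type library 1 is the lowest bar in both panels, and the P450 sums of wild-type library 2 (938) and knockout library 2 (935) are close.

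The most abundant subfamily in crypts was CYP4F, of the CYP4 family. The 9 CYP4F genes summed to 285, 383 and 418 FPKM in the wild type and to 425, 400 and 490 FPKM in the knockout. Wild-type library 1 was the lowest and knockout library 3 the highest, and the groups overlapped. Cyp4f14 (chr17:32905071-32917342, minus strand, mm10), a leukotriene B4 hydroxylase, was the most abundant P450 gene and carried 28.3% of the family's summed mean FPKM. It was at 203, 291 and 329 FPKM in the wild type and at 321, 279 and 392 FPKM in the knockout. The groups overlapped, and the log2 fold change was 0.28 ± 0.23 (SE) with a limma adjusted p of 0.91. Without wild-type library 1 it was 0.08, and without wild-type library 3 it was 0.43. Cyp4f40 was at 47.6, 44.9 and 35.8 FPKM in the wild type and at 54.2, 71.2 and 46.9 FPKM in the knockout. Knockout library 3 alone fell within the wild-type range (log2 fold change 0.41 ± 0.19, limma adjusted p 0.86, and 0.25 without knockout library 2). Cyp4v3, the mouse ortholog of the human fatty acid hydroxylase CYP4V2, was at 49.0, 68.3 and 87.3 FPKM in the wild type and at 99.0, 56.6 and 115 FPKM in the knockout, and its groups overlapped. Cyp4f18, a leukotriene B4 hydroxylase of myeloid cells, was at 1.92, 1.45 and 1.44 FPKM in the wild type and at 0.695, 1.38 and 0.729 FPKM in the knockout. All 3 knockout libraries were below the wild type (log2 fold change -0.57 ± 0.23, unadjusted limma p = 0.0427, adjusted p 0.85, exact p = 0.1), and knockout library 2 lay just under the wild-type range. Relative to total fragments, knockout library 2 (43 of 15819430) lay above wild-type libraries 2 (41 of 16042558) and 3 (42 of 16074777). The separation therefore depends on the scaling. This gene overlaps Zfp961 on the opposite strand, which had a mean of 5.12 FPKM, and whether fragments were counted by strand is not given in the sources used here. The other reported CYP4 genes in crypts were Cyp4f16, Cyp4b1, Cyp4f13, Cyp4f17, Cyp4f15 and Cyp4a32, and the groups of each overlapped.

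Of the CYP3 family, 3 of 7 genes were reported in crypts. The subfamily summed to 118, 185 and 271 FPKM in the wild type and to 316, 185 and 264 FPKM in the knockout. Cyp3a13 (chr5:137892932-137921619, minus strand), a CYP3A enzyme of the intestine, was at 81.6, 101 and 110 FPKM in the wild type and at 132, 123 and 162 FPKM in the knockout, with means of 97.5 ± 14.6 and 139 ± 20.6 FPKM (SD, n = 3 each). Every knockout library was above every wild-type library, with a log2 fold change of 0.51 ± 0.17, an unadjusted limma p of 0.0218, an adjusted p of 0.80 and an exact permutation p of 0.1. A processed pseudogene inside it on the same strand, Gm15502, had a mean of 23.8 FPKM and did not separate the groups, at 15.2, 21.7 and 27.0 FPKM in the wild type and 15.9, 30.7 and 32.5 FPKM in the knockout. Cyp3a25 was at 30.4, 59.2 and 116 FPKM in the wild type and at 127, 41.2 and 60.5 FPKM in the knockout, with overlap. Its log2 fold change was 0.20 with all libraries, -0.28 without wild-type library 1 and -0.25 without knockout library 1. Cyp3a11, a target of the pregnane X receptor (Nr1i2), was at 5.90, 24.7 and 43.8 FPKM in the wild type and at 56.3, 20.7 and 40.5 FPKM in the knockout. Wild-type library 1 was far below the others, and the remaining 5 libraries overlapped between groups.

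Of the reported CYP2 genes in crypts, Cyp2e1 alone had a lower mean log2 level in the knockout. The 15 CYP2C genes, whose products oxidize arachidonic acid and drugs, included 6 reported ones, all with a log2 fold change above 0 and a median of 0.58. Their sums were 54.7, 94.1 and 133 FPKM in the wild type and 171, 91.2 and 124 FPKM in the knockout. Cyp2c68 was at 20.3, 29.4 and 28.2 FPKM in the wild type and at 47.9, 31.6 and 38.4 FPKM in the knockout. Its groups did not overlap (log2 fold change 0.59 ± 0.21, unadjusted limma p = 0.0245, adjusted p 0.81, exact p = 0.1). Of the 75-base stretches of its GENCODE transcripts, 28.5% also occur in other genes, most of them in Cyp2c40, which had no fragment in either tissue, so its assignment of fragments is uncertain. Cyp2c65 was at 28.6, 39.5 and 51.2 FPKM in the wild type and at 73.8, 43.8 and 59.4 FPKM in the knockout, with overlapping groups. It shared 11.4% of its 75-base stretches with Cyp2c66, and Cyp3a25 shared 12.3% and Cyp4f16 10.1% with other genes. Of the 42 members reported in either tissue, 31 shared under 5%. Over 20% was shared by 3, which were Cyp2c68, Cyp2d10 (22.3%) and Cyp4a32 (28.0%). Cyp2c55 spread widely, at 2.91, 18.0 and 40.7 FPKM in the wild type and 28.1, 7.42 and 12.1 FPKM in the knockout. Its log2 fold change was 0.04 ± 0.90 and fell to -0.96 without wild-type library 1, and its mean FPKM was lower in the knockout. Cyp2b10, the gene induced by the constitutive androstane receptor, was at 13.5, 31.0 and 40.1 FPKM in the wild type and at 77.6, 25.1 and 71.5 FPKM in the knockout. Knockout libraries 1 and 3 were above all others while knockout library 2 lay inside the wild-type range (log2 fold change 1.01 ± 0.53, limma adjusted p 0.86, with 0.55 without wild-type library 1 and 1.52 without knockout library 2). The other 4 CYP2B genes had no fragment in crypts.

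Cyp2s1 (chr7:25802475-25816913, minus strand), an extrahepatic enzyme inducible through the aryl hydrocarbon receptor, had the smallest standard error of the reported members in crypts. It was at 11.6, 12.9 and 13.2 FPKM in wild-type crypts and at 17.2, 16.2 and 15.2 FPKM in knockout crypts. The groups did not overlap, with a log2 fold change of 0.36 ± 0.11, an unadjusted limma p of 0.0164, an adjusted p of 0.80 and an exact permutation p of 0.1. Leaving out each library in turn gave 0.30 to 0.40. Cyp2j6, of the epoxygenase subfamily CYP2J, was at 17.1, 23.2 and 24.6 FPKM in the wild type and at 29.6, 25.6 and 28.3 FPKM in the knockout. Its groups did not overlap either (log2 fold change 0.37 ± 0.16, unadjusted limma p = 0.0574, adjusted p 0.85, exact p = 0.1). Cyp2d26, at 36.3, 41.7 and 96.0 FPKM in the wild type and 109, 56.0 and 100 FPKM in the knockout, overlapped between groups. Cyp2e1, the ethanol-oxidizing P450, was at 1.98, 1.85 and 2.45 FPKM in the wild type and at 1.68, 1.11 and 1.15 FPKM in the knockout. Here every knockout library was the lower (log2 fold change -0.52 ± 0.19, unadjusted limma p = 0.0263, adjusted p 0.81, exact p = 0.1).

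Cyp1a1, the classical target of the aryl hydrocarbon receptor, was the sole CYP1 gene reported in crypts. Its level was 0.162, 1.92 and 1.44 FPKM in the wild type and 4.69, 0.878 and 14.6 FPKM in the knockout. In fragments, wild-type library 1 held 7 and knockout library 3 held 572. Knockout libraries 1 and 3 were above the wild type and knockout library 2 was inside its range, so the log2 fold change of 1.71 ± 0.88 did not pass (limma adjusted p 0.86, exact permutation p = 0.3). Without knockout library 3 it was 0.87 and without knockout library 2 it was 2.60. Ahr itself was at 3.50, 2.76 and 2.98 FPKM in the wild type and at 3.30, 2.83 and 3.10 FPKM in the knockout, with a log2 fold change of 0.00. Cyp1a2 and Cyp1b1 stayed below the threshold.

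**Figure D2:**
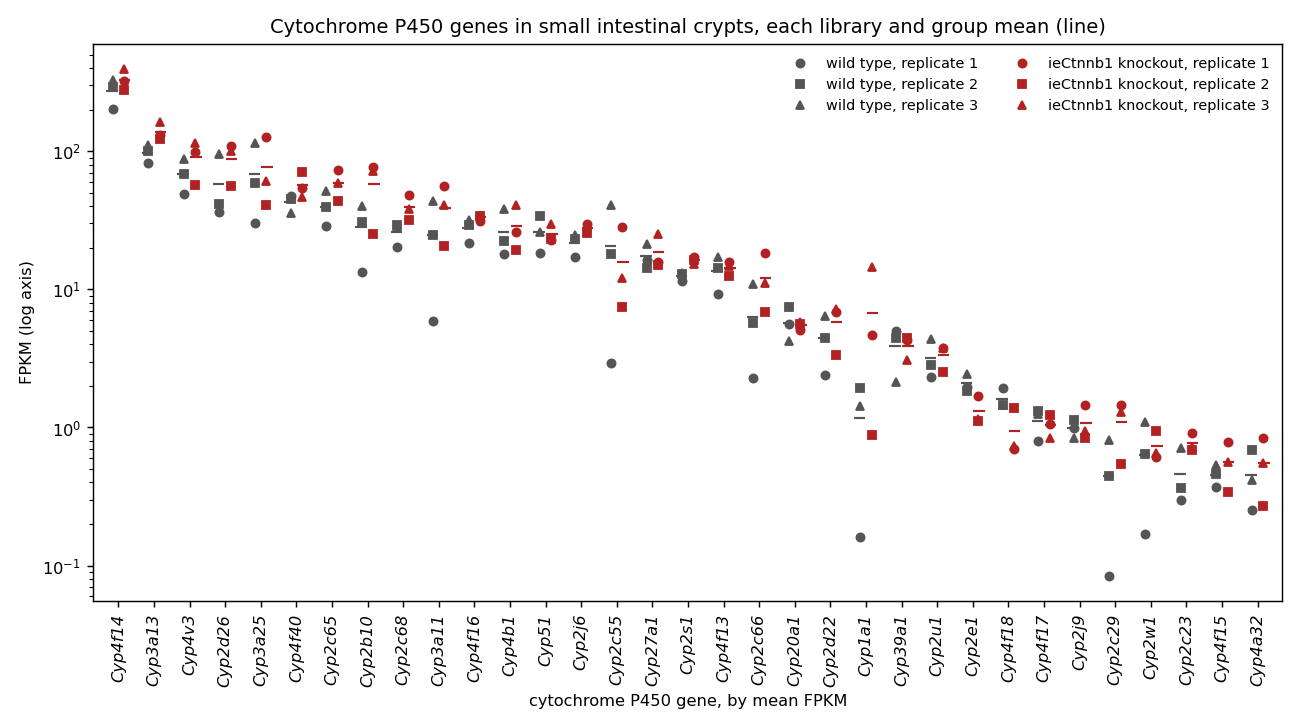
FPKM (log axis) of the 33 reported cytochrome P450 genes in crypts, ordered by mean, with a symbol per library and a line at each group mean, wild type in grey and ieCtnnb1 knockout in red. Wild-type library 1 (grey circles) is the lowest of the 6 for 25 genes, and Cyp1a1 spans 0.162 to 14.6 FPKM.

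The sterol and bile acid genes Cyp51, Cyp27a1 and Cyp39a1 overlapped between the crypt groups. Cyp51, the lanosterol demethylase of cholesterol synthesis, was at 18.2, 33.9 and 26.0 FPKM in the wild type and at 22.7, 23.2 and 29.6 FPKM in the knockout. Cyp27a1, the mitochondrial sterol hydroxylase of bile acid synthesis, was at 16.4, 14.4 and 21.3 FPKM in the wild type and at 15.8, 15.1 and 25.2 FPKM in the knockout. Both genes overlapped between groups, with log2 fold changes of -0.02 ± 0.23 and 0.09 ± 0.23. The oxysterol hydroxylase Cyp39a1 was at 5.04, 4.43 and 2.13 FPKM in the wild type and 4.27, 4.42 and 3.05 FPKM in the knockout. Cyp20a1, an orphan P450 without an assigned substrate, was at 5.59, 7.44 and 4.21 FPKM in the wild type and 5.08, 5.64 and 5.82 FPKM in the knockout. The log2 fold changes of Cyp51, Cyp27a1, Cyp39a1 and Cyp20a1 each changed sign when a library was left out, and that of Cyp51 also under rescaling to equal totals. The bile acid gene Cyp7a1 and the vitamin D hydroxylase Cyp24a1 had no fragment in either tissue.

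Promoter entries from RefSeq (GRCm38.p6) were found for 34 of the 42 members reported in either tissue, and the 250 bases before each start were searched on both strands. The HNF4 motif CAAAGTNCA was in 4 of the 34 genes and in 1.19% of the 32851 promoter entries. These 4 are shown as the members that hold the HNF4 letters, and Cyp1a1 as the classical target of the aryl hydrocarbon receptor. Bases further upstream were not searched, and whether the GCGTG letters of Cyp1a1 act as a response element was not tested. Capitals mark the HNF4 letters, the xenobiotic response element core GCGTG (28.2% of entries), the TATA box TATAAA (12.4% of entries) and the CDX site TTTATNG (9.81% of entries). The core was in 11 member genes, the TATA box in 12 and the CDX site in 5, while the sterol response element TCACNCCAC was in 0 and in 1.05% of entries.
Cyp2c65 (chr19:39060756-39061005, plus strand): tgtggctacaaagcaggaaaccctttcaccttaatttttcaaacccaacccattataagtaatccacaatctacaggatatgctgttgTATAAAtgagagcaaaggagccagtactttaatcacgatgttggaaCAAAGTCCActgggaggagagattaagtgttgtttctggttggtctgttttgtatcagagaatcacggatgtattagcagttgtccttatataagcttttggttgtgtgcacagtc
Cyp2c68 (chr19:39741102-39741351, minus strand): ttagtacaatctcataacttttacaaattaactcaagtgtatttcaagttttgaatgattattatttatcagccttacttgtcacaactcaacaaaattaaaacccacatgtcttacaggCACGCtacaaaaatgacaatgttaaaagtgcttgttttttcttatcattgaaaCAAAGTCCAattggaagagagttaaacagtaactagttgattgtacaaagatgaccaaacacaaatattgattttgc
Cyp2d26 (chr15:82794246-82794495, minus strand): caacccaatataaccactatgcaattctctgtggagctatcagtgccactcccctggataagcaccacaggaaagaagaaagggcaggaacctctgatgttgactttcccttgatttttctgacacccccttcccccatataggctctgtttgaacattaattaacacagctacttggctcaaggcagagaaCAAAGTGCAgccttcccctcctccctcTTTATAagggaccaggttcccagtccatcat
Cyp3a11 (chr5:145879855-145880104, minus strand): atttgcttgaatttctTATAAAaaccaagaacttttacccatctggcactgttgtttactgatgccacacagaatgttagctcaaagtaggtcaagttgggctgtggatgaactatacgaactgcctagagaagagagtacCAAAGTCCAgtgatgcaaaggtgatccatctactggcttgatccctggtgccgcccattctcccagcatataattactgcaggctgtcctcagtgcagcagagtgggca
Cyp1a1 (chr9:57697363-57697612, plus strand): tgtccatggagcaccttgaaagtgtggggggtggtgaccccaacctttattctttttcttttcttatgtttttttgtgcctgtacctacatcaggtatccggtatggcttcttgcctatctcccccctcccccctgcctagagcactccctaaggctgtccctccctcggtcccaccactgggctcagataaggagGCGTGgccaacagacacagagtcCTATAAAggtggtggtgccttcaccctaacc
The HNF4 letters began 116, 77, 58 and 109 bases before the start in Cyp2c65, Cyp2c68, Cyp2d26 and Cyp3a11. In Cyp1a1 the GCGTG core began 54 bases before the start, and its TATA box, at 30 bases, overlaps the CDX letters. These matches describe letters, and binding was not measured. Hnf4a was at 154, 140 and 162 FPKM in wild-type crypts and at 144, 147 and 143 FPKM in knockout crypts. Those groups overlapped (log2 fold change -0.07 ± 0.13).

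In tumors the P450 genes were led by the sterol genes Cyp27a1 and Cyp51. Cyp27a1 was lower in every knockout library, and Cyp2d34, Cyp4f14, Cyp4f16, Cyp20a1 and Cyp2s1 were higher in every knockout library than in any control. The 94 members summed to 226, 238 and 242 FPKM in the ApcMin/+ tumors and to 231, 249 and 237 FPKM in the knockout tumors. By limma, 0 of the 16743 tested genes had an adjusted p under 0.05, the lowest being 0.27 over all genes and 0.29 over the reported members, and the voom fit also gave 0. At an unadjusted p under 0.05, 3 of the 31 reported members were higher in the knockout and 1 lower, beside 8.46% and 6% of all tested genes. Without knockout library 2 these counts were 1 and 2, and by voom they were 5 and 1, beside 15.2% of all tested genes in each of these fits. With the deposited scaling, the groups did not overlap for 5 members that were higher and 1 that was lower, beside 11.4% and 10.6% of all tested genes. The log2 fold change was above 0 for 19 of the 31 (61.3%) against 51.3% of all tested genes, with medians of 0.12 and 0.01. With the scaling of the deposited values, an unadjusted limma p below 0.05 came with a higher mean for 1417 genes and with a lower mean for 1004. The split was 1075 higher and 1344 lower after rescaling to equal totals, and 1109 and 1286 after quantile normalization. The members then stood at 3 higher and 1 lower, and at 4 and 1.

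Cyp27a1 (chr1:74713574-74737892, plus strand), the bile acid pathway sterol hydroxylase, was the most abundant P450 gene in tumors, with 20.8% of the family's summed mean FPKM. It was at 49.8, 59.7 and 68.5 FPKM in the ApcMin/+ tumors and at 41.8, 31.0 and 44.8 FPKM in the knockout tumors, with means of 59.4 ± 9.36 and 39.2 ± 7.24 FPKM (SD, n = 3 each). Every knockout library was below every control, with a log2 fold change of -0.60 ± 0.18, an unadjusted limma p of 0.0121, an adjusted p of 0.29 and an exact permutation p of 0.1. Leaving out each library in turn gave -0.72 to -0.44. Cyp51 followed at 33.1, 41.3 and 36.2 FPKM in the controls and 40.6, 33.9 and 43.4 FPKM in the knockouts, with overlapping groups (log2 fold change 0.09 ± 0.13, 0.01 to 0.19 over the libraries left out, and -0.03 under quantile normalization). Cyp39a1 was at 5.08, 6.77 and 6.53 FPKM in the controls and at 5.25, 4.90 and 5.44 FPKM in the knockouts. The groups of Cyp39a1 overlapped. Cyp21a1, the adrenal steroid hydroxylase gene, was at 4.47, 3.29 and 1.72 FPKM in the controls and at 4.36, 9.99 and 4.61 FPKM in the knockouts. Knockout library 2 stood apart, and the log2 fold change was 0.88 ± 0.39 with all libraries, 0.52 without that library and 0.56 without control library 3. Of its 75-base stretches 11.5% also occur in the pseudogene Cyp21a2-ps.

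Of the reported CYP2D genes in tumors, 5 had a log2 fold change above 0 and 1 below. Of the CYP4F genes 3 were above 0 and 4 below, where 51.3% of all tested genes were above 0. Cyp2d10 and Cyp4f39 changed sign when a library was left out. The 8 CYP2D genes summed to 27.7, 26.3 and 18.9 FPKM in the controls and to 28.4, 39.7 and 30.6 FPKM in the knockouts, and 6 were reported. Cyp2d34 (chr15:82615965-82620946, minus strand) was at 16.9, 14.9 and 9.92 FPKM in the controls and at 18.6, 25.7 and 20.3 FPKM in the knockouts. The groups did not overlap (log2 fold change 0.63 ± 0.21, unadjusted limma p = 0.0228, adjusted p 0.31, exact p = 0.1), and without control library 3 the difference was 0.41. In crypts the same gene had a mean of 0.0352 FPKM. Cyp4f14 was at 3.31, 2.92 and 2.39 FPKM in the control tumors and at 4.39, 7.65 and 3.84 FPKM in the knockout tumors, without overlap. Knockout library 2 was the highest, and the log2 fold change was 0.73 ± 0.25 with it and 0.46 without it (with it, unadjusted limma p = 0.0241, adjusted p 0.31, exact p = 0.1). Cyp4f40 was at 10.7, 5.81 and 6.15 FPKM in the controls and at 10.7, 17.5 and 11.8 FPKM in the knockouts. Control library 1 and knockout library 1 were nearly equal and the groups touched there (log2 fold change 0.80 ± 0.27, unadjusted limma p = 0.0229, adjusted p 0.31, exact p = 0.2). Cyp4f16 was at 13.2, 13.5 and 14.1 FPKM in the controls and at 14.3, 14.1 and 15.5 FPKM in the knockouts. Its groups were separate by a narrow margin (log2 fold change 0.10 ± 0.08, and 0.06 without knockout library 3). Relative to total fragments they overlapped, with control library 3 (636 of 14648696) above knockout library 2 (684 of 16041000). Cyp4f13 was at 9.87, 9.52 and 10.2 FPKM in the controls and at 9.09, 9.96 and 9.46 FPKM in the knockouts, with overlap.

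Among the further members given in tumors, the groups of Cyp2s1 and Cyp20a1 were separate. Cyp2s1 was at 2.69, 2.84 and 2.97 FPKM in the controls and at 3.16, 4.39 and 3.60 FPKM in the knockouts. Its groups were separate with the knockout higher, as they were in crypts (tumor log2 fold change 0.33 ± 0.14, unadjusted limma p = 0.0522, adjusted p 0.35, exact p = 0.1). Its tumor value fell to 0.22 without knockout library 2. Cyp20a1 was at 12.9, 12.4 and 12.6 FPKM in the controls and at 14.2, 13.6 and 13.3 FPKM in the knockouts, again separate, with a log2 fold change of 0.11 ± 0.08. Relative to total fragments, however, its control library 1 (476 of 15895487) lay above knockout library 3 (474 of 16064312). Cyp2j6 was at 12.5, 12.6 and 13.9 FPKM in the controls and at 13.9, 15.7 and 12.9 FPKM in the knockouts. Those groups overlapped. Cyp3a13 was at 3.24, 4.28 and 3.73 FPKM in the controls and at 4.18, 5.25 and 3.88 FPKM in the knockouts, with overlap. The retinoic acid hydroxylase Cyp26b1 was at 0.969, 1.69 and 0.6997 FPKM in the controls and at 1.35, 1.65 and 1.73 FPKM in the knockouts. It overlapped as well, and it was the sole CYP26 gene reported. Cyp2e1 was at 2.63 FPKM in control library 1 and at 0.112 to 0.607 FPKM in the other 5 tumor libraries. The CYP1 genes were below the threshold in tumors.

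**Figure D3:**
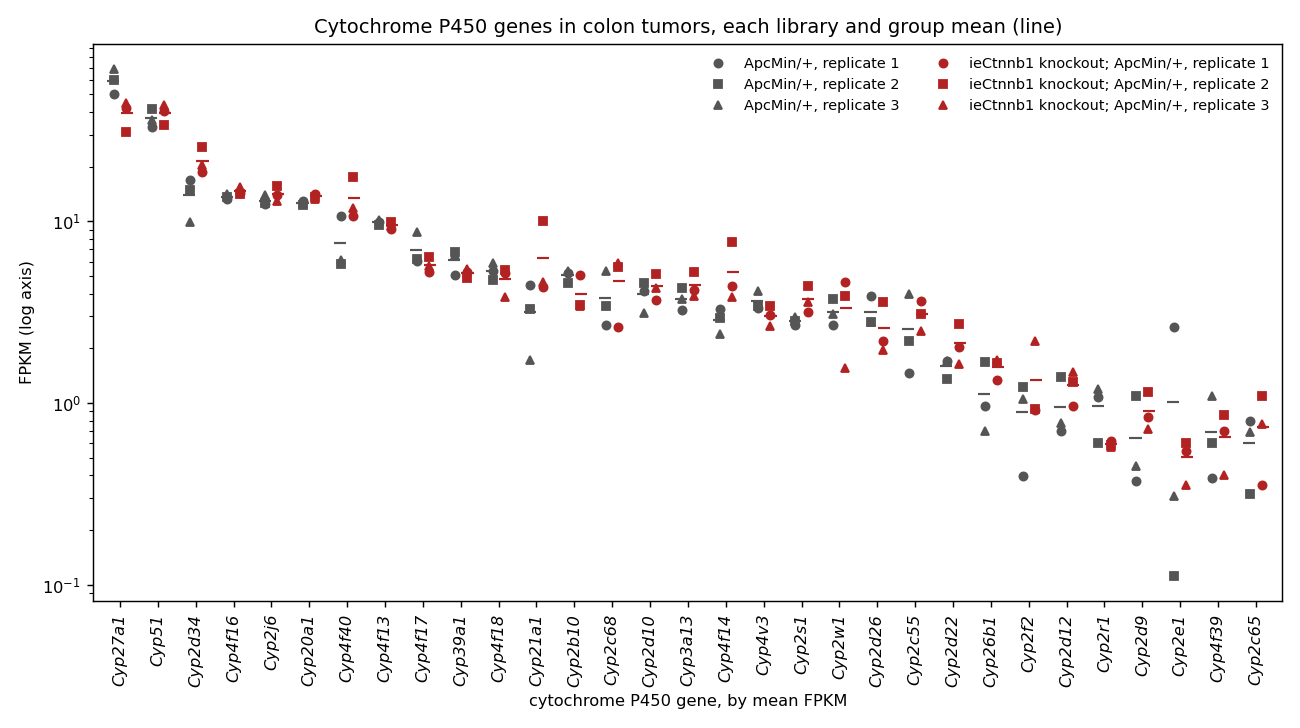
FPKM (log axis) of the 31 reported cytochrome P450 genes in colon tumors, ordered by mean, with a symbol per library and a line at each group mean, ApcMin/+ in grey and ieCtnnb1 knockout; ApcMin/+ in red. Cyp27a1 has its 3 knockout libraries (31.0 to 44.8 FPKM) below its 3 controls (49.8 to 68.5 FPKM).

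Marker genes of several cell types were read from the same tumor fit, in which no gene had a limma adjusted p under 0.05. Of all tested genes there, 51.3% had a log2 fold change above 0 and 14.5% had an unadjusted p under 0.05. All 7 goblet cell markers were higher in the knockout with an unadjusted p under 0.05, and summed to 1407, 1420 and 1455 FPKM in the controls and to 2689, 3222 and 2848 FPKM in the knockouts. Spink4 was the most abundant and none was at 0. The 8 colonocyte markers summed to 213, 223 and 210 FPKM in the controls and to 287, 416 and 357 FPKM in the knockouts, with all 8 higher, 2 at an unadjusted p under 0.05, Hoxb13 the most abundant and none at 0. The 9 Paneth cell markers summed to 1997, 2057 and 2226 FPKM in the controls and to 2969, 4756 and 1701 FPKM in the knockouts, highest in knockout library 2, as were Cyp4f14, Cyp4f40, Cyp2d34 and Cyp21a1. Knockout library 2 also had the highest goblet, colonocyte, and fibroblast and smooth muscle sums. It held the highest value of 11 of the 31 reported members and of 19.7% of all tested genes. The most abundant Paneth marker was Lyz1, none was at 0, and none had an unadjusted p under 0.05. Of 9 fibroblast and smooth muscle markers 8 were higher, 5 at an unadjusted p under 0.05, with sums of 456, 326 and 299 FPKM in the controls and 475, 566 and 487 FPKM in the knockouts, Col1a1 the most abundant and none at 0. The 10 immune cell markers summed to 261, 452 and 323 FPKM in the controls and to 226, 185 and 203 FPKM in the knockouts, with S100a9 the most abundant and none at 0. Of the 8 tested, 4 were higher and 4 lower, and S100a8 and S100a9 were lower without overlap (-0.98 ± 0.38 and -1.01 ± 0.40). All 7 epithelial markers were higher, 2 at an unadjusted p under 0.05. They summed to 3254, 3140 and 2853 FPKM in the controls and to 3730, 3710 and 3798 FPKM in the knockouts. All 4 tested stem cell markers were lower, 1 at that level. The part of these markers in the P450 values was not tested.

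Side by side, by the sign of the log2 fold change, the 22 members reported in both tissues split into 10 that were higher in the knockout in both, 3 lower in both, 7 higher in crypts and lower in tumors, and 2 lower in crypts and higher in tumors. Of all reported members, 84.8% in crypts and 61.3% in tumors were above 0, against 52.8% and 51.3% of all tested genes. The split was not counted over all genes, and agreement between the tissues was not tested. The 3 lower in both were Cyp2e1, Cyp4f18 and Cyp4f17. Leaving out a library changed the sign of 8 of the 22 in crypts and of 3 in tumors, Cyp2c65, Cyp2e1 and Cyp2w1. Of the 3 lower in both, Cyp4f17 changed sign in crypts, and Cyp2e1 in tumors was at -0.22 with all libraries and at 0.50 without control library 1. The mean FPKM went the other way for Cyp2c55 in crypts (20.6 in the wild type and 15.9 in the knockout) and for Cyp2w1 in tumors (3.16 and 3.35). Cyp27a1 had log2 fold changes of 0.09 ± 0.23 in crypts and -0.60 ± 0.18 in tumors, and Cyp2b10 had 1.01 ± 0.53 and -0.33 ± 0.17. The difference between the tissues was not tested. In level, Cyp4f14 ranked at the top in crypts with a mean of 303 FPKM and had 4.08 FPKM in tumors, whereas Cyp27a1 had 18.0 FPKM in crypts and 49.3 FPKM in tumors.

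**Figure D4:**
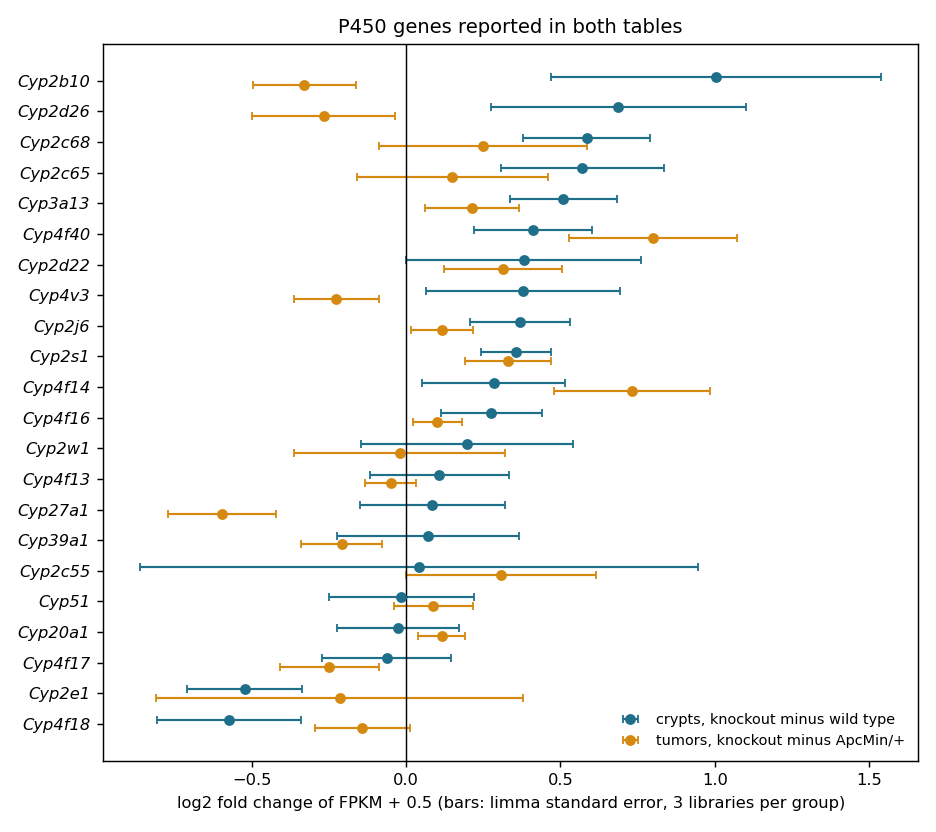
Log2 fold change of FPKM + 0.5 for the 22 P450 genes reported in both tissues, knockout minus control, in crypts (blue) and tumors (orange), with bars for the limma standard error. Cyp27a1 lies at -0.60 in tumors and 0.09 in crypts, and Cyp2s1 at 0.33 and 0.36.

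The genes that serve P450 enzymes were read from the same fits, in which 52.8% of all tested genes in crypts and 51.3% in tumors were above 0, and 5.85% and 14.5% had an unadjusted p under 0.05. Of 9 tested redox partners in crypts, all 9 had a log2 fold change above 0, and 3 had an unadjusted p under 0.05, namely Cyb5r3 (0.74 ± 0.20), Cyb5b (0.43 ± 0.14) and Fdx1 (0.32 ± 0.14). The 3 became 2 without wild-type library 1 or 2, 5 without wild-type library 3, and 1 without knockout library 1 or 3. With wild-type libraries 1 and 2 both left out, 0 of the 9 had an unadjusted p under 0.05. The number above 0 was 8 there and without wild-type library 2 or knockout library 2. Por was at 20.2, 23.8 and 28.3 FPKM in the wild type and at 34.1, 24.5 and 33.9 FPKM in the knockout. Its groups overlapped, and wild-type library 1 and knockout library 2 were the lowest of their groups. In tumors Por was at 39.3 to 41.4 FPKM in all 6 libraries, and Cyb5a (0.31 ± 0.09) and Pgrmc1 (0.22 ± 0.08) were higher at an unadjusted p under 0.05. Neither was at that level with the libraries that express Xist left out, where 7.2% of all tested genes were. Of 8 heme synthesis genes, 2 were higher in knockout crypts at that level, Alas1, the rate-limiting enzyme, and Alad. This number was 1 without knockout library 1 and 2 or 3 without any other library. Alas1 was at 17.8, 19.4 and 17.3 FPKM in the wild type and at 25.9, 23.8 and 24.4 FPKM in the knockout, without overlap (log2 fold change 0.44 ± 0.11, limma adjusted p 0.74). None of the 8 passed an unadjusted p of 0.05 in tumors by limma.

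Of 19 tested regulators in crypts, Nr1h3, the liver X receptor alpha, had an unadjusted p under 0.05 (log2 fold change 0.42 ± 0.12). Over the libraries left out 1 to 3 regulators were higher and 0 to 1 lower at that level. In tumors, Nr1h3 (0.52 ± 0.15), the bile acid receptor Nr1h4 (0.41 ± 0.12) and Ppard (0.26 ± 0.09) were higher at that level and the retinoic acid receptor Rarb (-0.61 ± 0.16) was lower, of 20 tested (2 to 5 higher and 1 to 2 lower over the libraries left out). Nr1i2 was at 24.9 to 33.4 FPKM in wild-type crypts and 27.3 to 32.7 FPKM in knockout crypts. In tumors it was at 7.73 to 11.3 FPKM in the controls and 10.7 to 14.1 FPKM in the knockouts, with overlap. Hnf4a in tumors was at 61.1 to 72.5 FPKM in the controls and 74.8 to 102 FPKM in the knockouts, without overlap (log2 fold change 0.32 ± 0.14, limma adjusted p 0.36, and 0.19 without knockout library 2). Ahr in tumors was at 9.53 to 14.0 FPKM in the controls and 8.28 to 12.5 FPKM in the knockouts, with overlap.

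Among aryl hydrocarbon receptor targets outside the family, 3 of 7 were tested in crypts. Nqo1 was at 13.7, 10.9 and 13.0 FPKM in the wild type and at 21.7, 19.9 and 21.6 FPKM in the knockout. Those groups did not overlap (log2 fold change 0.73 ± 0.12, unadjusted limma p = 0.000615, adjusted p 0.73, exact p = 0.1). The other 2, Tiparp (0.05 ± 0.24) and Ugt1a6a (-0.01 ± 0.23), overlapped between groups. In tumors Nqo1 also overlapped (0.15 ± 0.29), and all 3 of these values changed sign with a library left out. Of 29 tested conjugation and other drug metabolism genes, 10 were higher and 1 lower in knockout crypts at an unadjusted p under 0.05. The 10 became 5 without knockout library 1, 12 without knockout library 2 and 6 to 11 without any other library, and 3 with wild-type libraries 1 and 2 both left out. Under the alternatives that kept all libraries they ranged from 6 to 11. The 4 with the smallest p were Ugt1a7c (0.68 ± 0.14), Adh1 (0.9974 ± 0.23), Ces1f (0.92 ± 0.25) and Ugt1a1 (0.61 ± 0.18). Fragments from the exons that Ugt1a genes share cannot be assigned to a single one of them. In tumors 4 were higher and 4 lower of 23 tested (1 to 7 and 2 to 4 over the libraries left out, and 1 and 2 without both Xist libraries), and the 4 with the smallest p were Ugt2b34 (-0.45 ± 0.08), Ugt2b35 (-1.09 ± 0.24), Sult1b1 (0.82 ± 0.23) and Ces2c (0.47 ± 0.17). The drug efflux transporters gave 0 of 6 in crypts and 1 of 7 in tumors, Abcc2 (-0.58 ± 0.23, and -0.36 without knockout library 1). Over the libraries left out they gave 0 to 1 in crypts and 0 to 3 in tumors. The lipid mediator P450s Tbxas1 and Ptgis were below the threshold in crypts, and neither had an unadjusted p under 0.05 in tumors. None of these genes had a limma adjusted p under 0.05.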

How the data were processed

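Libraries had been prepared from total RNA with the NEBNext Ultra II kit. The authors' processing notes name cutadapt, HISAT2, Cufflinks 2.2.1, DESeq2 and the mm10 genome. The deposited values are FPKM, 1 table per tissue. All (100%) nonzero FPKM multiplied by gene length came out as whole multiples of a step per library, within 0.01 of a whole number, and gave the fragment numbers. Each table was fitted alone with limma 3.58.1 in R 4.3.3 (lmFit, eBayes with trend) on log2(FPKM + 0.5), for genes with a mean of at least 0.5 FPKM, with Benjamini-Hochberg adjustment. Exact two-sided permutation tests were run per gene. The paper's legends give 3 mice per group, and the labels number the libraries without naming the mice. Members and lists were chosen with earlier results of these data known. In each tissue, the 8 most abundant members, the top member of each family and members with an unadjusted p under 0.05 or with separate groups (at most 12) are given per library, and members mentioned beyond these were chosen after their values were seen. Of each pathway list, at most 4 genes with an unadjusted p under 0.05 were named, and Por, Ahr, Nr1i2 and Hnf4a always. The code was tested on simulated data.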

Additional observations from a re-analysis of the deposited data

How the results depend on the processing

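The median log2 fold change of the reported P450 genes stayed above 0 in both tissues under every alternative, with leave-one-out ranges of 0.08 to 0.43 in crypts and 0.09 to 0.16 in tumors. The count of all tested genes with an adjusted p under 0.05 was 0 to 3 in crypts and 0 to 0 in tumors when each library was left out, and 1 in tumors without the variance trend. Reported members with an unadjusted p under 0.05 numbered 5 in crypts and 4 in tumors. Over the libraries left out they numbered 2 to 10 in crypts and 3 to 6 in tumors. Without a filter, where all members with fragments were tested, they numbered 7 in tumors. The share of all tested genes with an unadjusted p under 0.05 moved as well. Over the libraries left out it went from 3.26% to 9.48% in crypts and from 8.36% to 16.5% in tumors. It was 9.91% in tumors without a filter. Without the tumor libraries that express Xist it was 7.2%, with 3 members at that level and a median of 0.15. Same-numbered libraries did not vary together (correlations of deviations -0.05, -0.12 and 0.04 in crypts and 0.05, -0.09 and 0.05 in tumors), and a replicate block gave 3 members in crypts (5.16% of all tested genes), 5 in tumors (11.2%) and 0 genes with an adjusted p under 0.05 in either.

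No reported P450 gene and no gene of the pathway lists reached an adjusted p under 0.05 under any alternative, the lowest among those above the threshold being 0.172 for Cyp4f40 and Ugt2b34 in tumors. The 3 crypt genes that passed without wild-type library 3 were Gkn1, Gkn2 and Pgc. For the P450 genes given per library by the rule above, of 384 values outside the leave-one-out fits, 8 changed sign, all from uncalled values. Cyp51 was at 0.0099 in crypts after rescaling to equal totals and at -0.0291 in tumors after quantile normalization. Without wild-type crypt libraries 1 and 2, Cyp4f14 was at -0.0076, Cyp4v3 at -0.0141, Cyp2d26 at -0.17, Cyp3a25 at -0.76, Cyp27a1 at -0.22 and Cyp20a1 at 0.35. Of 192 leave-one-out values of these genes 12 changed sign, all in crypts: Cyp3a25 ranged from -0.28 to 0.68, Cyp51 from -0.25 to 0.19, Cyp27a1 from -0.14 to 0.24, Cyp20a1 from -0.21 to 0.16 and Cyp39a1 from -0.26 to 0.28. Members outside that rule changed sign as well, among them Cyp2c55 in crypts (-0.96 to 0.83) and Cyp2e1 in tumors (-0.68 to 0.50). The causes were not tested. A fit with 1 wild-type crypt library assumes that it varies like the knockout libraries. Log2 fold changes of members near 0.5 FPKM are understated by the pseudocount.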

Other observations

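Besides the 94 members, 37 genes of each table carry a symbol starting with Cyp and a digit but fall outside the rule, 6 of them protein-coding. The pseudogene Cyp4f41-ps had a mean of 1.04 FPKM in crypts and 1.42 FPKM in tumors, and Cyp2d37-ps had 1.11 FPKM in tumors. The others were below 0.5 FPKM.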
